A study of Mus musculus with 4 samples.

Results

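The boundaries described here are edges of topologically associating domains (TADs) that were called in haematopoietic stem cells (HSCs) of the mouse fetal liver. No edge within 100 kb of them was called in HSCs of the adult bone marrow. These boundaries were chosen from the deposited TAD lists themselves. A boundary was any distinct start or end of a TAD, and a fetal boundary was called unmatched when no adult boundary lay within 100 kb on the same chromosome. Of 2393 fetal boundaries on chromosomes 1 to 19 and X, 287 were unmatched, which is 12.0% of the list (95% exact Clopper-Pearson interval 10.7 to 13.4). Of the 287, 237 lay inside an adult TAD and 50 lay in an adult stretch to which no TAD was assigned. Since distance to the adult list chose these boundaries, the number and the distances are a description and carry no test.

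The study measured chromatin contacts by Hi-C, which ligates DNA ends held near one another by fixation and sequences the ligation junctions. The 4 samples were 2 of fetal liver HSCs (embryonic day 14.5) and 2 of adult bone marrow HSCs (age 6 to 8 weeks), all of the strain B6129SF1 with no treatment named. Cells of both tissues were sorted as Lin-Sca1+cKit+CD135-, a gate that also admits multipotent progenitors, and neither the number of animals pooled nor their sex is given in the sources used here. Each cell type had 1 TAD list, which leaves every value without a replicate error, and intervals cover counting error over boundaries or TADs only. Where 2 intervals are said to overlap, this does not show that the values are equal. The cell identity could not be checked against marker genes, since the lists hold coordinates alone, and the contact depth of each list is unknown. In both lists all but 10 boundaries lay on a 10 kb grid, so distances change in steps of 10 kb.

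A TAD is a stretch of chromosome whose parts contact each other more often than they contact the sequence beyond its edges. In mammals many edges carry sites bound by CTCF, where cohesin that is extruding a chromatin loop tends to halt, and enhancers mostly meet promoters of their own TAD. An edge that is called in one cell type and not in another is a difference between the calls, and the lists hold no contact values from which insulation at that edge could be read. HSCs of the fetal liver divide and expand, while most HSCs of the adult marrow are quiescent. Positions are given in build mm9, as the last base of the TAD on the low-coordinate side of the boundary. No gene annotation or genome of mm9 was used, so genes and sequence at these boundaries were not analysed here.

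Most fetal boundaries lay on or next to an adult one, and the unmatched boundaries formed a long, flat tail beyond them. The 2106 other fetal boundaries had a median distance of 10 kb to the adult list. Toward the limit the counts were low and nearly level. There were 13 fetal boundaries at 80 kb, 10 at 90 kb and 11 at 100 kb, all counted as matched. There were 8 at 110 kb, 7 at 120 kb and 11 at 130 kb, all counted as unmatched. The limit thus did not fall in a gap of the distribution. Just within it were boundaries at 106085000 on chromosome 2, 21325000 on chromosome 4 and 116475000 on chromosome 10, each 100 kb from an adult boundary. Just beyond it were boundaries at 165835000 on chromosome 1, 172145000 on chromosome 2 and 103175000 on chromosome 11, each 110 kb away.

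**Figure D1:**
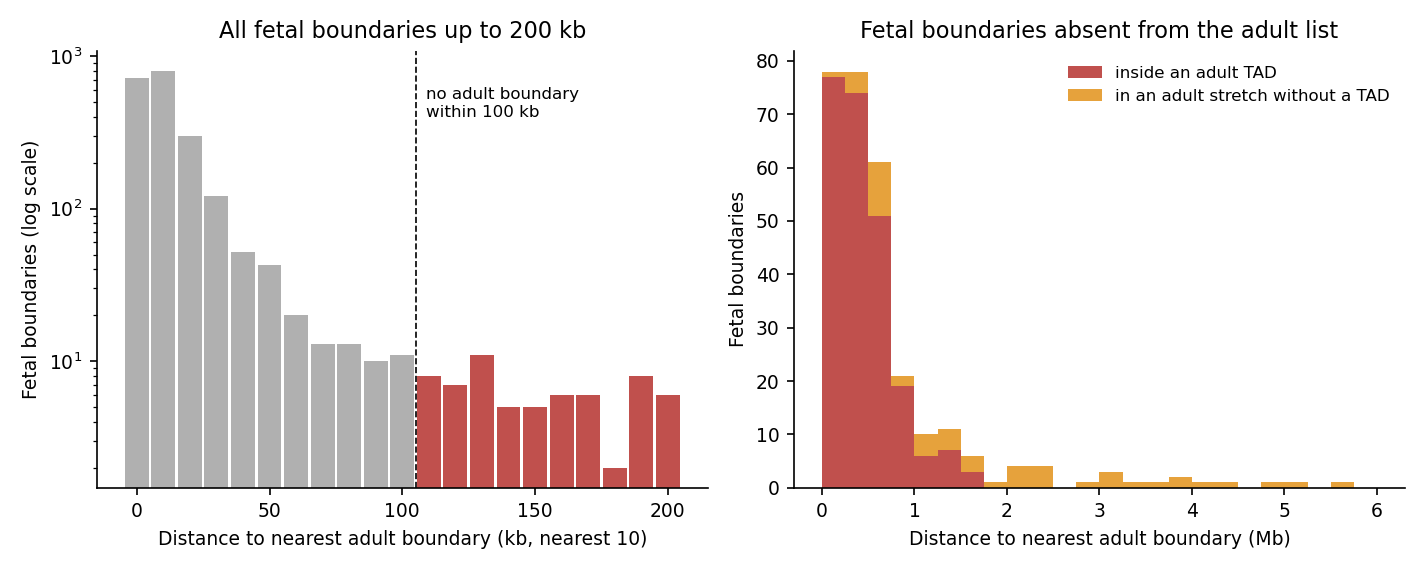
Left, number of fetal boundaries (log scale) by distance to the nearest adult boundary in steps of 10 kb up to 200 kb, with unmatched boundaries in red to the right of the dashed line; right, distances in Mb of all 287 unmatched boundaries in bins of 250 kb, stacked by place. The counts fall steeply from 802 at 10 kb to 11 at 100 kb and then stay low, and the boundaries in adult stretches without a TAD reach farther out than those inside adult TADs.

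Inside adult TADs, the 237 unmatched boundaries lay a median of 390 kb from the nearest adult boundary (95% order-statistic interval 330 to 450), with quartiles of 200 and 570 kb and a maximum of 1740 kb. Of these boundaries, 63 lay at most 200 kb from an adult boundary, or 26.6% (21.1 to 32.7). A further 86 lay at 500 kb or more, or 36.3% (30.2 to 42.8), and 16 lay beyond 1 Mb. The median distance from the nearer end of the adult TAD was 32.0% of that TAD's length (28.6 to 34.1). The nearer end was the one at the lower coordinate for 118 of the 237, or 49.8% (43.3 to 56.3), an interval that includes an even split. A fetal TAD lay on both sides of 234 of them, or 98.7% (96.3 to 99.7), against 94.2% (93.1 to 95.1) of the other fetal boundaries. Nearly all were thus borders between adjoining fetal TADs. The other fetal boundaries can lie on the edge of an adult stretch without a TAD, from which the rule bars these. The comparison is therefore not independent of how the boundaries were chosen.

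These boundaries were spread over 214 of the 2310 adult TADs. A single unmatched boundary lay in 193 of these TADs, 2 lay in 20, and 1 adult TAD held 4. The ends of these adult TADs were set against the fetal list. Both ends of the adult TAD had a fetal boundary within 100 kb in 154 of the 214, or 72.0% (65.4 to 77.9). Over all 2245 adult TADs longer than 200 kb the share was 79.1% (77.4 to 80.8). Among the 2031 of them without an unmatched fetal boundary it was 79.9% (78.05 to 81.6). Matched ends were thus less frequent among the 214, a difference that was not tested. In another 52, or 24.3% (18.7 to 30.6), 1 end was matched, and in 8, or 3.74% (1.62 to 7.23), neither was. In the opposite direction, 281 adult boundaries had no fetal boundary within 100 kb, or 11.8% (10.5 to 13.1) of the 2391 adult boundaries. Of the 239 fetal TADs that held such boundaries, 70.7% (64.5 to 76.4) had both ends matched, an interval that overlaps that of the adult TADs.

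Taking only the 139 adult TADs with both ends matched and a single unmatched fetal boundary, the outer edges were compared more closely. In 68 of them, or 48.9% (40.4 to 57.5), both ends lay within 10 kb, and in 17 both ends were identical. Among the 1622 adult TADs longer than 200 kb that had both ends matched and held no unmatched boundary, both ends lay within 10 kb in 55.0% (52.5 to 57.4), and the intervals overlap. The median length of the 139 was 1340 kb (1190 to 1520). The fetal boundary divided them into a shorter piece with a median of 460 kb (390 to 510) and a longer one with a median of 870 kb (800 to 980). The shorter piece held a median of 34.1% of the TAD (32.04 to 36.1). It held under 25% in 34 of them and over 40% in 44. Over all 237 boundaries, the central 1 of 3 equal parts of the adult TAD held 110, or 46.4% (39.9 to 53.0), and it made up 38.5% of the length of these TADs that lay over 100 kb from both ends. That length is summed over TADs, so long TADs weigh most, while most TADs held a single boundary whatever their length. In short TADs the central part takes up more of this length. The shares are therefore not weighted alike, and no excess in the centre can be read from them. Fetal TADs that were divided by a single adult boundary, 153 in number, gave a shorter piece of 460 kb (370 to 490) and a longer one of 940 kb (830 to 1010), and each of these intervals overlaps its counterpart.

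The 6 unmatched boundaries farthest from an adult boundary lay in adult TADs of 2860 to 3900 kb. The farthest was at 68515000 on chromosome 12, 1740 kb from the nearest adult boundary. It lay in an adult TAD from 66355001 to 70255000, 3900 kb long, and separated fetal TADs of 2220 and 1750 kb. The outer edges of that pair differed from those of the adult TAD by 60 and 10 kb. On chromosome 9 a fetal boundary at 18055000 lay 1690 kb inside an adult TAD from 16365001 to 20175000. Here the outer edge was not kept, since the fetal TAD below that boundary, 2930 kb long, began at 15125001, 1240 kb before the adult TAD. Neither list thus had the other's boundary in that region, and the fetal and the adult list each joined what the other separated.

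A fetal boundary at 86665000 on chromosome 18 divided the adult TAD from 85165001 to 88875000 into fetal TADs of 1510 and 2220 kb, with both outer edges within 10 kb. At the start of chromosome 9, the adult TAD from 3005001 to 6705000, 3700 kb long, was divided at 4485000 into fetal TADs of 1480 and 2220 kb with identical outer edges. On chromosome 7 the adult TAD from 76075001 to 79555000 was divided at 77495000 into fetal TADs of 1420 and 2040 kb. The boundary at 120465000 on chromosome 7 was 1 of a pair, with 119525000, in the adult TAD from 119125001 to 121985000. The fetal TADs between that adult TAD's edges measured 380, 940 and 1500 kb. In 5 of these 6 adult TADs both ends were thus matched.

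Several unmatched boundaries in the same adult TAD were rare. The adult TAD with the most, 4, spanned chromosome 2 from 66105001 to 68545000, or 2440 kb. Fetal TADs of 160, 430, 1500, 170 and 180 kb filled it, with unmatched boundaries at 66275000, 66705000, 68205000 and 68375000. Its outer edges lay at 10 kb from those of the fetal list on both sides. Short fetal TADs thus stood at both edges of this adult TAD, with a long one between them. The longest adult TAD with a pair spanned chromosome 7 from 91995001 to 95195000, or 3200 kb, with fetal boundaries at 94185000 and 94725000. The fetal TAD above that pair, 2350 kb long, ran on past the adult end, so that end was not matched. On chromosome 3 the adult TAD from 58145001 to 61045000, or 2900 kb, was divided at 58645000 and 58865000 into fetal TADs of 510, 220 and 2170 kb.

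**Figure D2:**
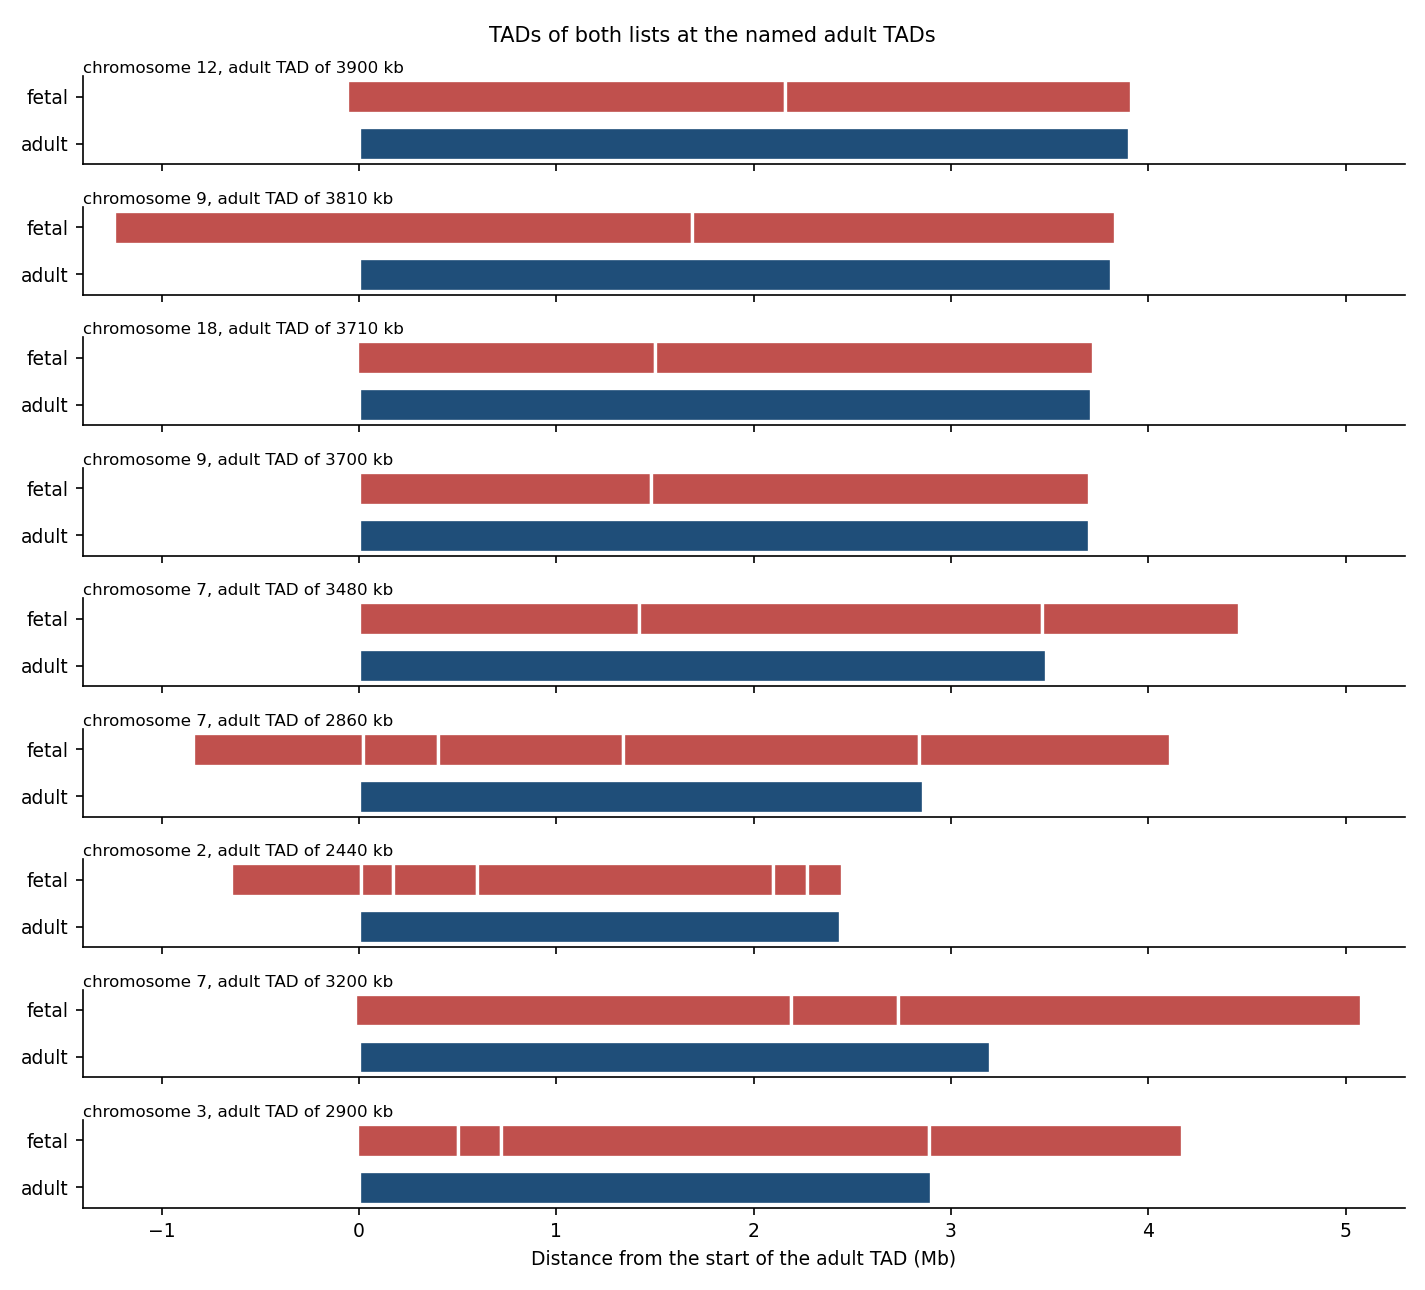
TADs of the fetal list (red) and the adult list (blue) at 9 adult TADs, against distance in Mb from the start of each adult TAD; white lines are boundaries. The fetal list has 1 unmatched boundary inside the adult TAD in the first 5 maps, 2 in the sixth, eighth and ninth, and 4 on chromosome 2, and in most maps the outer edges of both lists meet within 60 kb.

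Long adult TADs offered more room for an unmatched fetal boundary than short ones, since only a TAD longer than 200 kb can hold a point over 100 kb from both its ends. The adult TADs that held an unmatched boundary had a median length of 1225 kb (1130 to 1370), against 740 kb (710 to 770) for the 2031 other adult TADs longer than 200 kb. The share that held one was 4.90% (3.10 to 7.32) at over 200 to 500 kb, 3% (1.81 to 4.64) at over 500 to 750 kb, 15.5% (12.1 to 19.4) at over 1000 to 1500 kb and 36.7% (23.4 to 51.7) above 3000 kb. The number was then divided by the open length, which is the summed length lying over 100 kb from both ends of a TAD. Above 750 kb this density varied little, from 0.116 to 0.165 boundaries per Mb. It was 0.0725 per Mb in adult TADs of over 500 to 750 kb and 0.253 per Mb in those of over 200 to 500 kb.

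The highest density thus stood in the shortest adult TADs, where it rested on 22 boundaries in 86.9 Mb of open length. Adult boundaries in fetal TADs of that length numbered 7, or 0.0898 per Mb. They lay in 1.62% (0.655 to 3.32) of fetal TADs of over 200 to 500 kb, against the 4.90% (3.10 to 7.32) of adult TADs. The intervals overlap from 3.10 to 3.32%, and the difference was not tested. Among adult TADs that held an unmatched boundary, the ends of short and long ones gave different counts, and this difference was not tested. Both ends were matched for 12 of the 22 boundaries in adult TADs of up to 500 kb. They were matched for 51 of the 63 in adult TADs above 2000 kb. Between these classes, the share was 54.9% at over 500 to 1000 kb and 79.2% at over 1000 to 2000 kb. The share of all adult TADs with both ends matched was not computed by length. Whether matched ends are less frequent in all short adult TADs is therefore not known. Above 3000 kb, 36.7% of adult TADs and 15.7% (7.02 to 28.6) of fetal TADs held a boundary of the other list, with intervals that overlapped. That difference was not tested either.

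**Figure D3:**
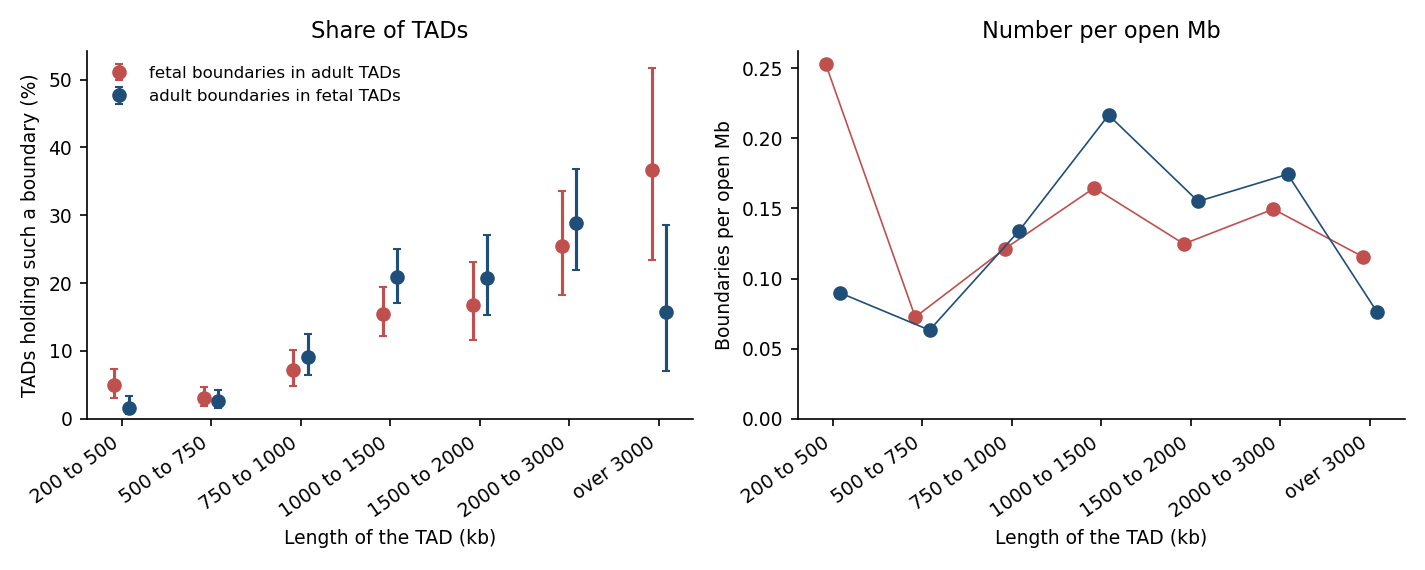
Left, percent of TADs of each length class that held a boundary of the other list over 100 kb from any of their own list's boundaries, with 95% exact intervals; right, number of such boundaries per open Mb, which is the length lying over 100 kb from both ends. Red is fetal boundaries in adult TADs and blue adult boundaries in fetal TADs; the share reaches 36.7% for fetal boundaries in TADs above 3000 kb, while the density is highest, at 0.253 per Mb, in adult TADs of 200 to 500 kb.

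The fetal TADs on either side of these boundaries were described by their length. The 446 fetal TADs that ended on an unmatched boundary inside an adult TAD had a median length of 650 kb (580 to 710). The 1812 fetal TADs that ended on no unmatched boundary had a median of 810 kb (780 to 840). A further boundary in a stretch shortens the TADs there by construction, so this difference is not independent of how the boundaries were chosen. Of all 2318 fetal TADs, 506 ended on an unmatched boundary and 41 had one at both ends.

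Where an end of the adult TAD was unmatched, unmatched fetal and adult boundaries stood in the same interval between matched ones. Walking along each chromosome, 211 runs of unmatched fetal boundaries inside adult TADs lay between matched fetal boundaries. In 57 of these runs, or 27.0% (21.1 to 33.5), the adult list had at least 1 unmatched boundary of its own in the interval, and in 35 of them the count was 1 against 1. The remaining 154 runs restate the 154 adult TADs with both ends matched. An unmatched end of an adult TAD is itself an unmatched adult boundary. The 57 runs thus largely restate the adult TADs with an unmatched end and are no separate observation.

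For 44 of the 237, or 18.6% (13.8 to 24.1), the nearest adult boundary was itself unmatched, against 11.8% (10.5 to 13.1) of all adult boundaries. These 44 lay closer to it, at a median of 190 kb (150 to 260), and 24 of them lay at 200 kb or less. The other 193, whose nearest adult boundary had a fetal partner, lay at a median of 440 kb (370 to 490). Of these, 39 lay at 200 kb or less, or 20.2% (14.8 to 26.6). A fetal boundary near a matched adult boundary must also lie near that boundary's fetal partner, which an unmatched adult boundary lacks. The difference in distance is thus partly set by the rule. The same constraint bears on the 18.6%, so no excess over the 11.8% can be read from it. Of the 44, 11 lay on chromosome 11. For the 44, a boundary placed over 100 kb apart in the lists and a loss beside a gain cannot be told apart.

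By chromosome, the share of fetal boundaries that were unmatched had a median of 11.8% over the 20 chromosomes. It was highest on chromosome 11, where 21 of 99 were unmatched, or 21.2% (13.6 to 30.6). Chromosome 14 followed with 22 of 106, or 20.8% (13.5 to 29.7), and chromosome X with 18 of 122, or 14.8% (8.98 to 22.3). It was lowest on chromosome 17, at 7.45% (3.05 to 14.7), then on chromosome 15, at 8.08% (3.55 to 15.3), and on chromosome 3, at 8.45% (4.44 to 14.3). The interval of chromosome 11 overlapped those of all 3 lowest chromosomes. The fetal share was higher than the adult one on 10 chromosomes, lower on 8 and equal on 2.

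Chromosomes 11 and 14, which had the highest shares, are described singly. On chromosome 11 all 21 unmatched boundaries lay inside adult TADs, as on 4 other chromosomes. Both ends of the adult TAD were matched for 8 of the 21, or 38.1% (18.1 to 61.6), against 163 of 216, or 75.5% (69.2 to 81.05), on the other chromosomes pooled. Single chromosomes among those also had low counts, with 2 of 5 on chromosome 19 and 6 of 12 on chromosome X. The nearest adult boundary was itself unmatched for 11 of the 21, and chromosome 11 thus held 11 of the 44 boundaries of that kind. Its adult list was the one with the largest share of unmatched boundaries, 29.1% (20.8 to 38.5), followed by chromosome 19 at 25.4% (15.0 to 38.4). An unmatched end of an adult TAD is an unmatched adult boundary, so the 8 of 21 and the 11 of 21 partly restate this share. How many of all adult TADs of chromosome 11 had both ends matched was not computed. The longest run inside adult TADs of chromosome 11 held 4 unmatched fetal boundaries, at 94705000, 95925000, 96905000 and 97575000, between matched ones at 93745000 and 98085000, with 2 unmatched adult boundaries in the same interval.

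On chromosome 14, 13 unmatched boundaries lay inside adult TADs and 9 in adult stretches without a TAD, more of the latter than on any other chromosome. Both ends of the adult TAD were matched for 12 of the 13. Its share of unmatched adult boundaries was 9.57% (4.47 to 17.4), from 9 of 94. Unmatched fetal boundaries thus outnumbered adult ones there by 22 to 9. Over the whole genome the counts were 287 and 281, and without chromosome 14 the fetal list had 7 fewer than the adult list rather than 6 more.

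**Figure D4:**
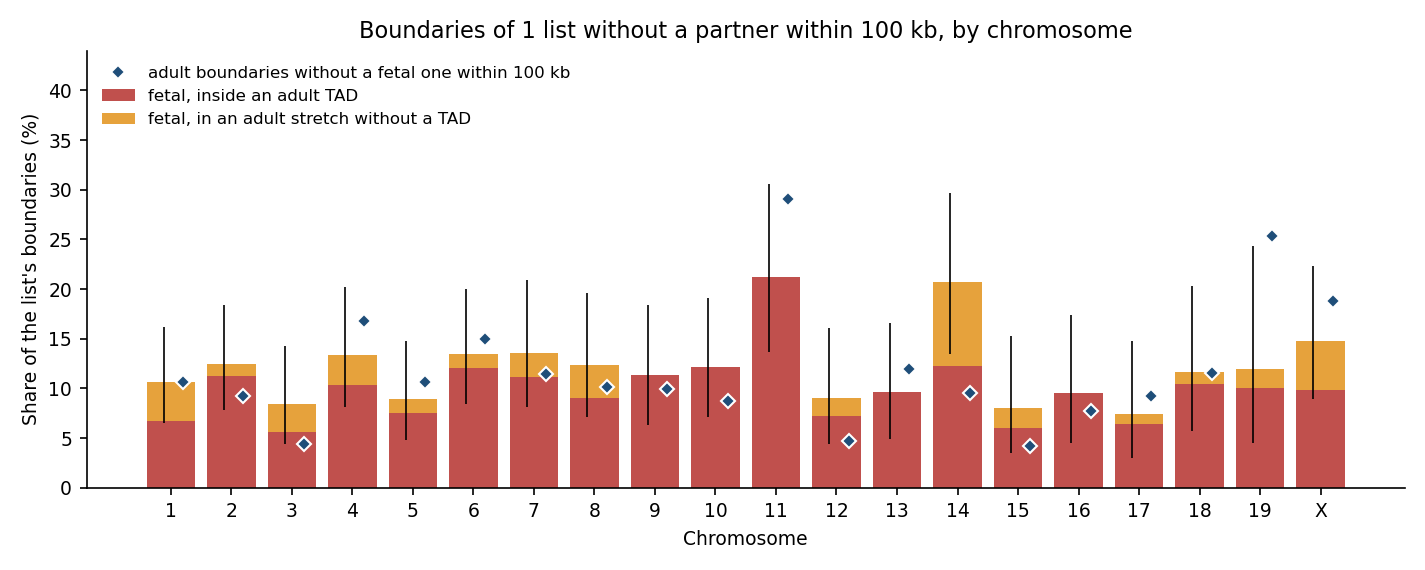
Percent of fetal boundaries on each chromosome without an adult boundary within 100 kb, stacked by place (red, inside an adult TAD; orange, in an adult stretch without a TAD), with 95% exact intervals as black lines; blue diamonds give the percent of adult boundaries without a fetal one. Chromosomes 11 and 14 stand highest for the fetal list at 21.2% and 20.8%, and chromosomes 11 and 19 for the adult list at 29.1% and 25.4%.

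Along the chromosomes, unmatched boundaries inside adult TADs were found in every part. With the span of the fetal list on each chromosome divided into 5 equal parts from the low-coordinate end, where the mouse centromere lies, the parts held 50, 46, 50, 50 and 41 of the 237. The last part held 17.3% of them (12.7 to 22.7) and 484 of the 2106 other fetal boundaries (95% interval of the share 21.2 to 24.8). These intervals overlap, and the difference was not tested. The parts before it each held 19.4 to 21.1% of the 237 and 18.9 to 19.4% of the other fetal boundaries. The 237 were also set against the adult stretches without a TAD. Within 1 Mb of such a stretch were 16 of the 237, or 6.75% (3.91 to 10.7). For the other fetal boundaries the share was 9.07% (7.88 to 10.4), but these can lie on the edge of a stretch, which is an adult boundary, while the rule bars unmatched ones from the nearest 100 kb.

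The 50 unmatched boundaries in adult stretches without a TAD formed a separate class. They lay a median of 1505 kb (1040 to 2230) from the nearest adult boundary and up to 5700 kb. They made up 17.4% (13.2 to 22.3) of the unmatched fetal boundaries. In the opposite direction 11 of 281 unmatched adult boundaries lay outside fetal TADs, or 3.91% (1.97 to 6.90), with 8 in fetal stretches without a TAD and 3 beyond the last fetal TAD of a chromosome. The intervals of these shares do not overlap, but they take boundaries as independent. The 50 lay in only 32 adult stretches, 6 of which held 3 each. With 1 list per cell type, this difference was not tested. A fetal TAD lay on both sides of 26 of the 50, and on 1 side of the other 24, which are thus edges of a remaining fetal stretch without a TAD. Along the chromosomes, the 5 parts held 6, 13, 18, 8 and 5 of the 50, with 36% (22.9 to 50.8) in the middle part. That part held 19.3% (17.7 to 21.1) of the other fetal boundaries. The 50 can lie only where adult stretches without a TAD lie, and the places of these stretches along the chromosomes were not computed. No excess in the middle part can therefore be read from these counts.

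Of the 61 adult stretches without a TAD, 32 held an unmatched fetal boundary, and coverage by fetal TADs follows largely from this division. Without an unmatched boundary, a stretch could be covered to any large extent only by a fetal TAD running across all of it, and the longest fetal TAD measured 4690 kb. In the 32, fetal TADs covered 106.02 of 217.9 Mb. In the other 29 they covered 0.300 of 141.6 Mb, and no more than 1.72% of any stretch. Of these 29, 14 were no longer than the longest fetal TAD. The 32 had a median length of 6490 kb (4960 to 8120) and the 29 a median of 4700 kb (4060 to 5380). Fetal TADs covered 12 of the 32 from end to end, and the remaining 20 in part, down to 2.82%. The 39 fetal TADs that lay wholly in adult stretches had a median length of 1880 kb (990 to 2600), against 810 kb for fetal TADs that ended on no unmatched boundary. Only 8 of 55 fetal stretches without a TAD held an unmatched adult boundary.

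The 4 longest of the 6 stretches that held 3 unmatched boundaries show both patterns. On chromosome 14 the adult stretch from 106335001 to 115205000, or 8870 kb, was covered entirely by fetal TADs. Fetal boundaries at 106925000, 110215000 and 111205000 framed whole TADs of 3290, 990 and 3980 kb in it. The stretch on chromosome 8 from 49235001 to 59085000, or 9850 kb, held fetal TADs of 2170, 3410 and 790 kb in a row from its start, and was covered to 65.3%. On chromosome 1 the stretch from 109565001 to 120175000, or 10610 kb, held fetal boundaries at 113535000, 114365000 and 118455000 and was covered to 61.5%. A second stretch on chromosome 14, from 87935001 to 97335000, or 9400 kb, was covered to 48.4%, with fetal boundaries at 89475000, 94325000 and 96295000. In these last 3, fetal TADs occupied the edges and left part of the stretch without a TAD in either list.

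**Figure D5:**
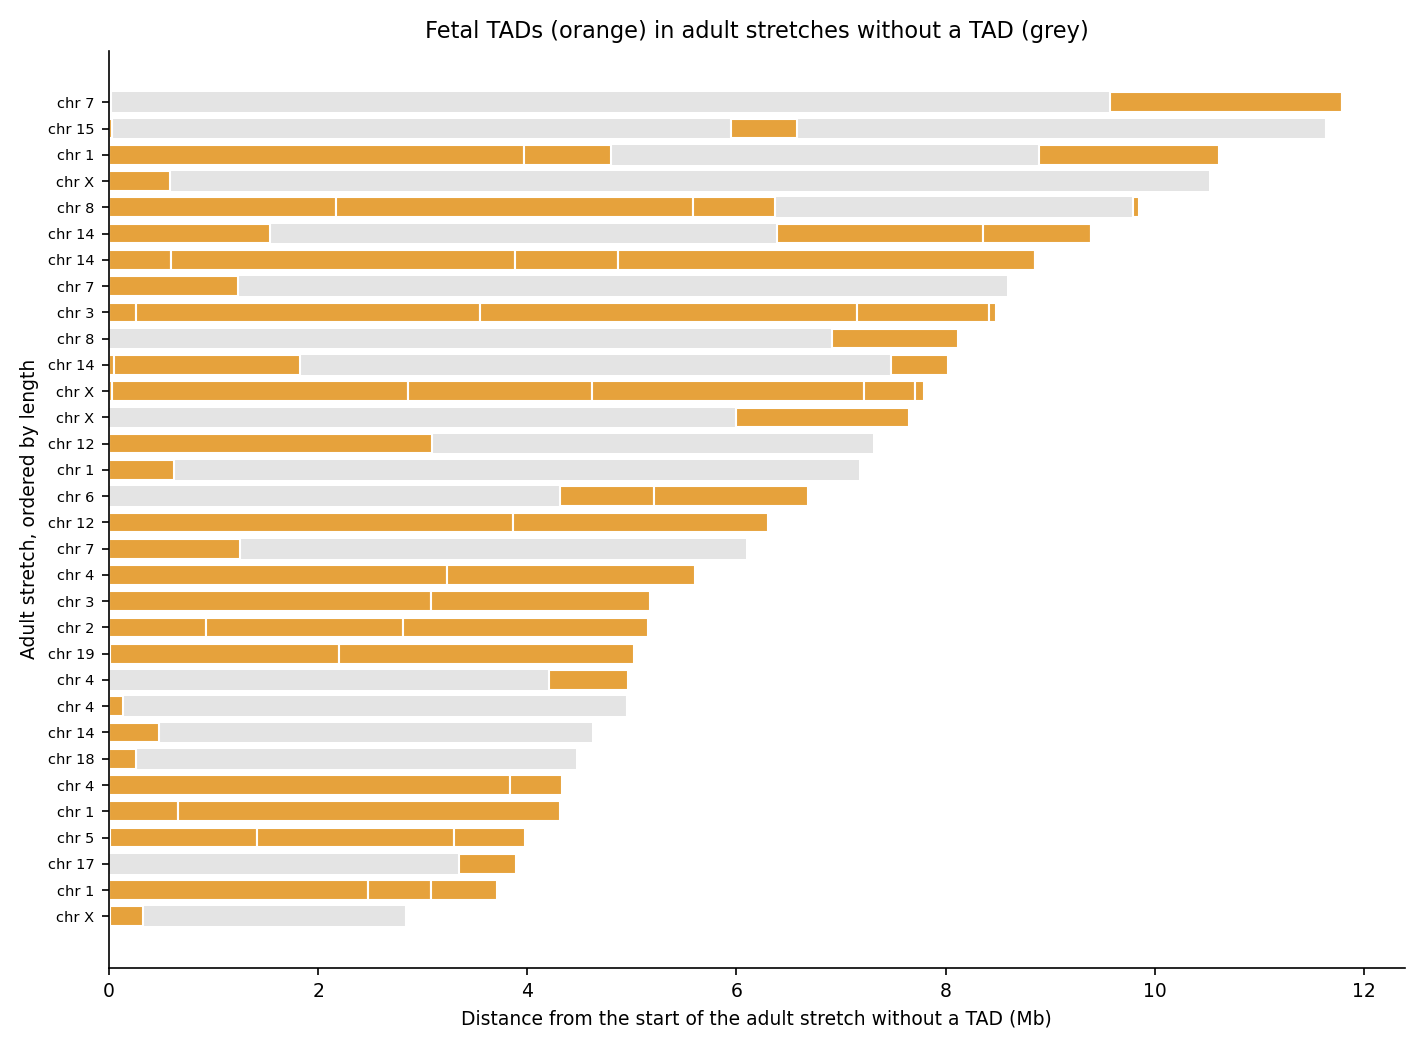
Each row is 1 of the 32 adult stretches without a TAD that held an unmatched fetal boundary, drawn in grey to scale in Mb from its start and ordered by length; orange blocks are the parts inside fetal TADs, and white lines are fetal boundaries. In 12 rows the orange blocks fill the stretch, and in the other 20 they mostly lie at one or both edges.

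Unmatched boundaries stood mostly alone along the chromosome. Counting both classes, 209 of 243 runs held 1 unmatched boundary, 26 held 2, 6 held 3 and 2 held 4. In all, 78 of the 287 stood next to another unmatched boundary, or 27.2% (22.1 to 32.7). Of the 6 runs of 3, each lay in an adult stretch without a TAD. Both runs of 4 lay inside adult TADs, on chromosomes 2 and 11. Sequencing depth, the map resolution and the TAD caller's settings could each add or remove boundaries in 1 list, and their part in these counts was not tested.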

How the data were processed

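Hi-C libraries of 2 fetal liver and 2 bone marrow HSC samples were each represented by 1 deposited TAD list per cell type, named by both samples in the labels. The authors' deposited files give a chromosome, start and end per TAD in base pairs, with no score, header or replicate. The build, mm9, and the tools HiC-Pro and GSNAP are named in the submitters' processing notes. Sequencing was single-end, per the labels' protocols, and how contacts were read from such reads is not stated there. The sources used here give no TAD caller, map resolution, pooling or depth, and each could change the number and position of boundaries. The gene and sequence tables at hand were of GRCm38, another build, and were not used.

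Boundaries, distances, matched ends and runs were computed in Python 3.11.15 with numpy 2.4.6, and exact intervals with scipy 1.17.1. The limit was 100 kb, with a boundary at exactly 100 kb counted as matched. The boundary functions were tested on simulated data with planted boundaries. With 1 list per cell type no test between the cell types was made. The items named were the 6 farthest boundaries inside adult TADs, the 3 adult TADs and the 4 adult stretches with the most unmatched boundaries (ties to the longer), 3 boundaries on each side of the limit (ties at the same distance by chromosome order), and the 3 highest and 3 lowest chromosomes. The run on chromosome 11 and the comparison of chromosomes 11 and 14 were chosen after their values were seen. The boundaries, lists and settings were chosen with earlier results of these data known. Alternatives were other distance limits, chromosomes left out, TADs of at least 200 kb, boundaries between adjoining TADs, merged boundaries, and a 40 kb limit for matched ends.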

Additional observations from a re-analysis of the deposited data

How the results depend on the processing

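Of 86 alternative values, 70 stayed inside the 95% interval of a median or within 1.5 times a count, 13 moved and 3 reversed. The number of unmatched fetal boundaries, and the number inside adult TADs, stayed within 1.5 times under all alternatives run, at 223 to 354 and 174 to 300. The lowest values came at a limit of 200 kb and the highest at 50 kb, as a wider limit can only remove unmatched boundaries. No chromosome held more than 22 of the 287, so leaving 1 out could not move these counts beyond 1.5 times. Those values, and those after merging, are no evidence that the counts are stable. The difference of 6 between unmatched fetal and adult boundaries was 2 at a limit of 50 kb, 10 at 200 kb, 12 on autosomes and 17 without chromosome 11. It reversed to -1 with TADs of at least 200 kb, to -8 with boundaries between adjoining TADs only, and to -7 without chromosome 14, an alternative chosen after seeing the data. Its sign therefore depends on these choices. Boundaries between adjoining TADs only left 26 unmatched boundaries in adult stretches, by construction. At limits of 50, 150 and 200 kb the median distance inside adult TADs was 280, 455 and 490 kb, which the limit itself sets. The relative position was 27.8% at 50 kb and 34.6% at 200 kb, the adult TADs holding an unmatched boundary had a median of 1470 kb at 200 kb, and 121 boundaries adjoined another at 50 kb. The mean length of fetal TADs ending on an unmatched boundary inside adult TADs was 829.9 kb. Merging boundaries within 40 kb changed nothing, since the shortest TAD was 110 kb. No paired analysis was possible because each cell type had a single list for both replicates, so neither replicate could be left out. The depth of each list is unknown, which limits every comparison, and its effect was not tested.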
